A study of Mus musculus with 10 samples.

Results

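A set of 8 genes that mark blood monocytes was followed in the lungs of young mice with increased pulmonary flow (IPF). They are Treml4, Plac8, Ly6c2, F13a1, Spn, Csf1r, Cd14 and Fcgr4, 8 of the 54532 genes in the deposited table, taken by gene name, and each name matched 1 row. The set was chosen by FPKM differences already seen between the same IPF and sham libraries, so what follows for these 8 genes in that comparison is a description and carries no p-values. The mice were wild-type C57BL/6J. In the IPF group, at postnatal day 7 (P7), the abdominal aorta was punctured through into the inferior vena cava, which leaves an aortocaval fistula and sends extra blood through the lungs. Sham mice went through surgery on the same day without the puncture. Whole lungs were collected at P30 and their mRNA was sequenced, with 5 mice per group and 1 library per mouse. A whole lung holds blood, epithelium, vessels and resident macrophages together, so a change in the number of monocytes and a change in the RNA each of them holds cannot be told apart in these data.

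Monocytes are made in bone marrow, circulate in blood and enter tissues, where they can become macrophages and dendritic cells. Classical mouse monocytes carry much Ly6C on their surface and leave the marrow through the chemokine receptor CCR2. Nonclassical monocytes carry little Ly6C, depend on the nuclear receptor NR4A1, express CX3CR1 and patrol the inner wall of vessels, the lung capillaries among them. Ly6c2, Plac8 and F13a1 served here as classical markers and Treml4 and Spn as nonclassical markers. Cd14, Fcgr4 and Csf1r, which other myeloid cells also use, completed the set.

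The promoter windows of 4 of the genes are shown because Treml4 and Plac8 are the genes the results turn on, and because Ly6c2 and Fcgr4 hold the only matches to the motifs in the windows searched. Each runs 5′ to 3′ on the strand of the gene, from 250 bases before to 50 bases after the RefSeq start site in GRCm38.p6. Treml4 lies at chr17:48264045-48264344 on the plus strand, Plac8 at chr5:100572156-100572455 on the minus strand, Ly6c2 at chr15:75111922-75112221 on the minus strand and Fcgr4 at chr1:171018676-171018975 on the plus strand. Capitals mark a direct repeat in Treml4, both PU.1 sites in Ly6c2, and an interferon-stimulated response element followed by a PU.1 site in Fcgr4.
Treml4: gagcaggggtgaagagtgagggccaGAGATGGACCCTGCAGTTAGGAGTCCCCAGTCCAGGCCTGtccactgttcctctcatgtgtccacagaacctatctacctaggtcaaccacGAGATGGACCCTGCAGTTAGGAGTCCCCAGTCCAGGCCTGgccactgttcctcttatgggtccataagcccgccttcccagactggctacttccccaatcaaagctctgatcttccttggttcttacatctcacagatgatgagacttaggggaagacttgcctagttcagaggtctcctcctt
Plac8: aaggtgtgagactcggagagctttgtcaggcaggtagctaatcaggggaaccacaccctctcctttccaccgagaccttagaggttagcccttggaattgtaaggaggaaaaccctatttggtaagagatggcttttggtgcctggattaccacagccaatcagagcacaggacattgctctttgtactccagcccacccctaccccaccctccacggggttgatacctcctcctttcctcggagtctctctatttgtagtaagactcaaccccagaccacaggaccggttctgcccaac
Ly6c2: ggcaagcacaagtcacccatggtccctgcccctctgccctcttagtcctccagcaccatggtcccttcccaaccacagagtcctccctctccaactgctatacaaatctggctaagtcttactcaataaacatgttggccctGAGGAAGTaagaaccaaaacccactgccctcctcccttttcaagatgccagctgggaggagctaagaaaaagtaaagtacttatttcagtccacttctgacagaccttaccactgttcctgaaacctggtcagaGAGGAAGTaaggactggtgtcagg
Fcgr4: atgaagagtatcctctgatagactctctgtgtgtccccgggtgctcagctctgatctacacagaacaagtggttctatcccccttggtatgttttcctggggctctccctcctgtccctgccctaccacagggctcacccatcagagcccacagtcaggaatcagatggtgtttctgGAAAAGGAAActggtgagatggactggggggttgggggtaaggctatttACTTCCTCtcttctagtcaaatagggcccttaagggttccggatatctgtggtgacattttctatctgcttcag

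In the Treml4 window, a stretch of 40 bases occurs at position -225 from the start site and again, letter for letter, at -134, a spacing of 91 bases. A direct repeat of at least that length was found in 112 of the 32851 promoter windows (0.341%). The motifs were searched on both strands in 6 windows, those of Treml4, Plac8, Ly6c2, F13a1, Spn and Fcgr4. The windows of Csf1r and Cd14 were not searched. The Ly6c2 window held the PU.1 site GAGGAAGT at -108 and at 27, and the Fcgr4 window held it on the opposite strand at -24. PU.1 is a transcription factor of all myeloid cells, and its site was present in 3.2% of all windows. The Fcgr4 window also held an interferon-stimulated response element on the opposite strand at -73, a motif of 3.44% of all windows. None of the motifs found overlapped another. The other 4 windows held no match to these motifs, and none of the 6 windows held the gamma-activated site TTCNNNGAA (8.3% of all windows), the NR4A element AAAGGTCA (1.51%), the C/EBP site TTGCGCAA (0.183%), the clock E-box CACGTG (7.15%) or the clock D-box TTATGTAA (0.938%). A match, or its lack, describes the letters of these windows and says nothing about binding.

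For Treml4 the primers of the study's PCR assay are also shown, because they place the assay on the transcript. Both run 5′ to 3′ and carry no capitals.
Forward primer: ctggaggtactcacaactgct
Reverse primer: ggctctgtcctaccattctatga
They matched 5 Treml4 transcripts of the GENCODE annotation of GRCm39, the forward primer in exon 1 (chr17:48571413-48571433) and the reverse primer in exon 2 (chr17:48571703-48571725). The amplicon spans 122 bases of the spliced transcript and 110 in 1 of the 5. The FPKM values below count reads over the whole gene and not over that stretch. FPKM scales the fragments of a gene by its length and by the size of the library, so levels can be compared roughly between genes and between samples. It does not correct for differences in library composition or for reads that fit several genes.

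The libraries held 16250190 to 19026843 recovered reads in the IPF group and 15483046 to 17818542 in the sham group. Sham replicate 1 stood apart, with a mean Spearman correlation of 0.912 with the other 9 libraries, against 0.929 to 0.932 for the rest. The groups were also divided by other genes. Xist, the non-coding RNA of X inactivation in females, was at 26.8 to 43.2 FPKM in IPF and 0.0301 to 0.0767 FPKM in sham, and the Y-linked Ddx3y was at 0 in all 5 IPF libraries and at 14.3 to 21.4 FPKM in sham. All 10 circadian clock genes listed passed the test, 3 higher and 7 lower in IPF. The operation, the sex of the mice and a difference in clock phase therefore cannot be told apart in any comparison of the 2 groups below. Sftpc, a surfactant gene of the alveolar epithelium, was at 9437 FPKM or more in every library.

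All 8 monocyte genes had a higher mean in IPF than in sham lungs. The difference was largest for Plac8 (2.84 times the sham mean), followed by Treml4 (2.35 times), Ly6c2 (2.06 times), Fcgr4 (1.85 times), F13a1 (1.48 times), Spn (1.45 times), Cd14 (1.19 times) and Csf1r (1.15 times). Each class held a larger and a smaller difference, with Plac8 at 2.84 and F13a1 at 1.48 times among the classical markers. Treml4 was at 2.35 and Spn at 1.45 times among the nonclassical markers.

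**Figure D1:**
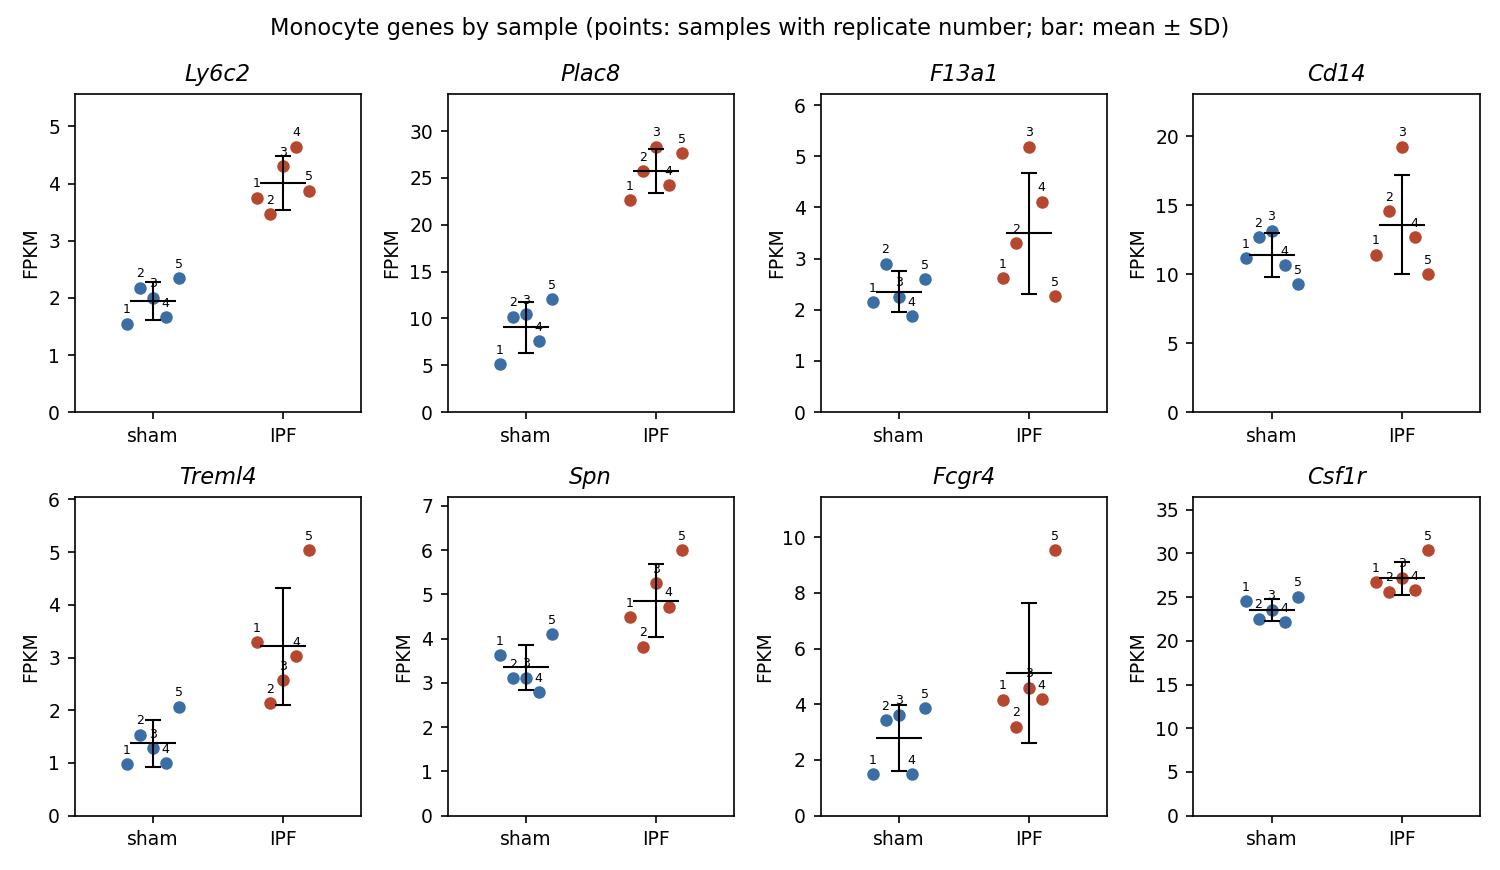
FPKM (linear axis from 0) of the 8 monocyte genes in each library, sham in blue and IPF in red, numbered by replicate, with the mean as a horizontal bar and the SD as whiskers. The 5 IPF points lie above all 5 sham points for Ly6c2, Plac8, Treml4 and Csf1r, and IPF replicate 5 is far above the other IPF points for Fcgr4 (9.54 FPKM, next 4.59).

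Treml4 (ENSMUSG00000051682, chromosome 17 of GRCm38, 48264295 to 48275360) encodes a receptor of the TREM-like family that is found on nonclassical monocytes and on some spleen macrophages. IPF replicates 1 to 5 had 3.29, 2.13, 2.57, 3.02 and 5.04 FPKM. Sham replicates 1 to 5 had 0.972, 1.54, 1.28, 0.992 and 2.07 FPKM. IPF replicate 5 was the highest library and sham replicate 1 the lowest, and the groups did not overlap, but the margin was narrow, with IPF replicate 2 at 1.03 times sham replicate 5. The means were 3.21 ± 1.11 and 1.37 ± 0.454 FPKM (SD, n = 5 each), a difference of 1.16 on the log2(FPKM + 0.1) scale (standard error 0.25). Treml4 rested on few reads, 71 to 178 per IPF library and 32 to 63 per sham library. The 71 reads of IPF replicate 2 have a 95% Poisson interval of 1.67 to 2.69 FPKM and the 63 reads of sham replicate 5 one of 1.59 to 2.65 FPKM, so the order of these libraries was within counting error. These intervals cover counting error only.

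Spn (ENSMUSG00000051457, chromosome 7, 127132232 to 127137823) encodes CD43, a mucin-like protein of the leukocyte surface that is abundant on nonclassical monocytes and is also carried by T cells. Its level was 4.48, 3.82, 5.25, 4.72 and 6.00 FPKM in IPF replicates 1 to 5. In the sham replicates it was 3.63, 3.11, 3.11, 2.80 and 4.10 FPKM. Only IPF replicate 2 fell within the sham range, below sham replicate 5, and 4 of 5 IPF libraries were above all sham libraries. Means of 4.86 ± 0.822 and 3.35 ± 0.517 FPKM (SD, n = 5 each) gave a log2 difference of 0.52 (standard error 0.13).

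Plac8 (ENSMUSG00000029322, chromosome 5, 100553725 to 100572245) encodes a small cysteine-rich protein of leukocytes and is abundant in classical monocytes. Here IPF replicates 1 to 5 had 22.6, 25.7, 28.3, 24.2 and 27.6 FPKM. In sham replicates 1 to 5 the values were 5.11, 10.2, 10.4, 7.54 and 12.0 FPKM. The groups were far apart, since the lowest IPF library was at 1.88 times the highest sham library. The means were 25.7 ± 2.37 and 9.06 ± 2.74 FPKM (SD, n = 5 each), and the log2 difference of 1.55 (standard error 0.20) was the largest of the 8 genes. IPF libraries were close to each other, with an SD of 0.13 on the log2 scale, whereas sham libraries spread more widely, with an SD of 0.49 that includes the low sham replicate 1. Reads numbered 613 to 853 per IPF library and 134 to 292 per sham library.

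Ly6c2 (ENSMUSG00000022584, chromosome 15, 75108158 to 75111970) encodes a Ly6C antigen, the glycolipid-anchored protein by which classical monocytes are sorted. IPF replicates 1 to 5 were at 3.75, 3.46, 4.30, 4.65 and 3.88 FPKM. Sham replicates 1 to 5 were at 1.55, 2.18, 2.00, 1.67 and 2.35 FPKM. No IPF library overlapped the sham range, and the lowest was at 1.47 times the highest sham library. The means of 4.01 ± 0.469 and 1.95 ± 0.336 FPKM (SD, n = 5 each) differed by 1.01 on the log2 scale (standard error 0.13), just past the limit of 1 used for calls. The near-identical neighbour Ly6c1, which is also made by endothelial cells, was at 107.3 to 141.4 FPKM in IPF and 90.7 to 131.9 FPKM in sham, with a log2 difference of 0.18 (limma adjusted p = 0.445). Reads that fit both genes could have been assigned to either, so the level of Ly6c2 is uncertain.

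F13a1 (ENSMUSG00000039109, chromosome 13, 36867178 to 37050244) encodes the A subunit of coagulation factor XIII, which monocytes, some macrophages and platelets make. Its IPF levels were 2.62, 3.30, 5.19, 4.11 and 2.26 FPKM in replicates 1 to 5. Its sham levels were 2.14, 2.90, 2.26, 1.88 and 2.60 FPKM. IPF replicates 2, 3 and 4 were above all sham libraries, whereas IPF replicates 1 and 5 lay within the sham range. The means were 3.50 ± 1.18 and 2.36 ± 0.401 FPKM (SD, n = 5 each), with a log2 difference of 0.50 (standard error 0.21).

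Cd14 (ENSMUSG00000051439, chromosome 18, 36725074 to 36726736) encodes the co-receptor that hands bacterial lipopolysaccharide to the TLR4 complex, and is made by monocytes, macrophages and neutrophils. IPF replicates 1 to 5 held 11.4, 14.6, 19.2, 12.7 and 10.0 FPKM of it. Sham replicates 1 to 5 held 11.2, 12.7, 13.2, 10.7 and 9.26 FPKM. IPF replicates 2 and 3 were above all sham libraries and the other IPF libraries were among them. With means of 13.6 ± 3.59 and 11.4 ± 1.58 FPKM (SD, n = 5 each), the log2 difference was 0.23 (standard error 0.16), which is not larger than the spread between mice, and without IPF replicate 3 it was 0.09.

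Fcgr4 (ENSMUSG00000059089, chromosome 1, 171018920 to 171029761) encodes an activating receptor for IgG that nonclassical monocytes, macrophages and neutrophils carry. The IPF values were 4.16, 3.20, 4.59, 4.19 and 9.54 FPKM in replicates 1 to 5. The sham values were 1.50, 3.42, 3.62, 1.48 and 3.86 FPKM. IPF replicate 5 was far above every other library, sham replicates 1 and 4 were low, and IPF replicate 2 lay within the sham range. The means were 5.14 ± 2.51 and 2.78 ± 1.19 FPKM (SD, n = 5 each), a log2 difference of 0.88 (standard error 0.34). It was 0.63 without IPF replicate 5 and 0.45 without IPF replicate 5 and sham replicate 1 together. Fcgr4 had the widest spread of the 8 genes, with log2 SDs of 0.58 in IPF and 0.68 in sham, and it rested on 67 to 212 reads per IPF library and 31 to 77 per sham library.

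Csf1r (ENSMUSG00000024621, chromosome 18, 61105572 to 61132149) encodes the receptor for colony-stimulating factor 1, on which monocytes and macrophages depend. IPF replicates 1 to 5 were at 26.7, 25.6, 27.2, 25.8 and 30.4 FPKM, and sham replicates 1 to 5 at 24.5, 22.5, 23.6, 22.1 and 25.1 FPKM. The groups did not overlap, although the lowest IPF library was only 1.02 times the highest sham library. Csf1r varied least between mice, and the means of 27.1 ± 1.93 and 23.6 ± 1.27 FPKM (SD, n = 5 each) differed by 0.20 on the log2 scale (standard error 0.06). It overlaps Hmgxb3 on the opposite strand, which was at 5.27 to 7.11 FPKM in IPF and 6.29 to 8.00 FPKM in sham.

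By level, Csf1r stood highest and Treml4 lowest of the 8 genes in both groups. In IPF lungs Csf1r was followed by Plac8, Cd14, Fcgr4, Spn, Ly6c2, F13a1 and Treml4. The ranges of Csf1r and Plac8 overlapped there, those of Plac8 and Cd14 and of Cd14 and Fcgr4 did not, and from Fcgr4 down each gene overlapped the next. In sham lungs the order was Csf1r, Cd14, Plac8, Spn, Fcgr4, F13a1, Ly6c2 and Treml4. Csf1r was clear of Cd14 and Plac8 was clear of Spn, while every other pair of neighbours in that order overlapped. The place of Ly6c2 in both orders is uncertain, because its reads can also fit Ly6c1. Plac8 thus had 22.6 FPKM or more in each IPF library, above the highest Cd14 value of 19.2 FPKM, whereas in sham its 5.11 to 12.0 FPKM overlapped the Cd14 values of 9.26 to 13.2 FPKM, with sham replicates 1 and 4 below them.

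Genes were called in limma when the adjusted p was under 0.05 and the log2 difference exceeded 1 in either direction. Treml4, Plac8 and Ly6c2 met both limits, 3 of the 8 members, where 1.14% of the 20448 genes tested did so, and 0.68% did so with the higher level in IPF. At the adjusted p alone Spn was added, which made 4 of 8, against 5.85% of all genes tested and 3.71% in that direction. All IPF libraries were above all sham libraries for 4 members, Treml4, Plac8, Ly6c2 and Csf1r, and for 4.52% of all genes tested, while 7.29% had groups without overlap in either direction. The median log2 difference was 0.70 over the 8 members and 0.0016 over all genes tested. Since the same comparison was used to choose the genes, these counts only describe them. The calls of Treml4 and Ly6c2 depended on single libraries: Treml4 missed a limit without IPF replicate 1, without IPF replicate 5 or without sham replicate 1, and Ly6c2 without IPF replicate 3, without IPF replicate 4, without sham replicate 1 or without sham replicate 4. Treml4 also missed the adjusted p without IPF replicate 1 or sham replicate 1. Spn passed the adjusted p in only 2 of the 10 fits that left out 1 library (without IPF replicate 2 or sham replicate 5), and did not pass with no filter or with no variance trend. Plac8 met both limits in each of those 10 fits.

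To set classical against nonclassical monocyte markers, log2(FPKM + 0.1) was averaged over Ly6c2, Plac8 and F13a1 and over Treml4 and Spn in each mouse. The classical mean was 2.63, 2.76, 3.12, 2.98 and 2.68 in IPF replicates 1 to 5 and 1.42, 2.05, 1.90, 1.58 and 2.11 in the sham replicates. The nonclassical mean was 1.98, 1.56, 1.92, 1.96 and 2.48 in IPF and 1.00, 1.20, 1.07, 0.83 and 1.59 in sham. The classical groups did not overlap, and the nonclassical ranges met, with IPF replicate 2 just below sham replicate 5. In IPF the classical mean was higher by 1.02 and the nonclassical mean by 0.84.

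The classical minus nonclassical difference within a mouse was 0.65, 1.20, 1.21, 1.02 and 0.19 in IPF replicates 1 to 5. In sham replicates 1 to 5 it was 0.42, 0.85, 0.83, 0.75 and 0.51. IPF libraries lay on both sides of the sham range, with IPF replicates 2, 3 and 4 above it and IPF replicate 5 below it. The means were 0.85 ± 0.43 and 0.67 ± 0.19 (SD, n = 5 each), so the classes differed in their change by 0.18, less than the SD within the IPF group, and leaving out 1 library at a time moved this value between 0.09 and 0.35. Pairs of genes gave values of both signs. The Plac8 to Treml4 difference was larger in IPF by 0.38, the Ly6c2 to Treml4 difference smaller by 0.15 (-0.15 IPF minus sham) and the F13a1 to Spn difference about the same (-0.01). IPF replicate 5 had the highest Treml4 and Spn and the lowest F13a1 of its group.

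**Figure D2:**
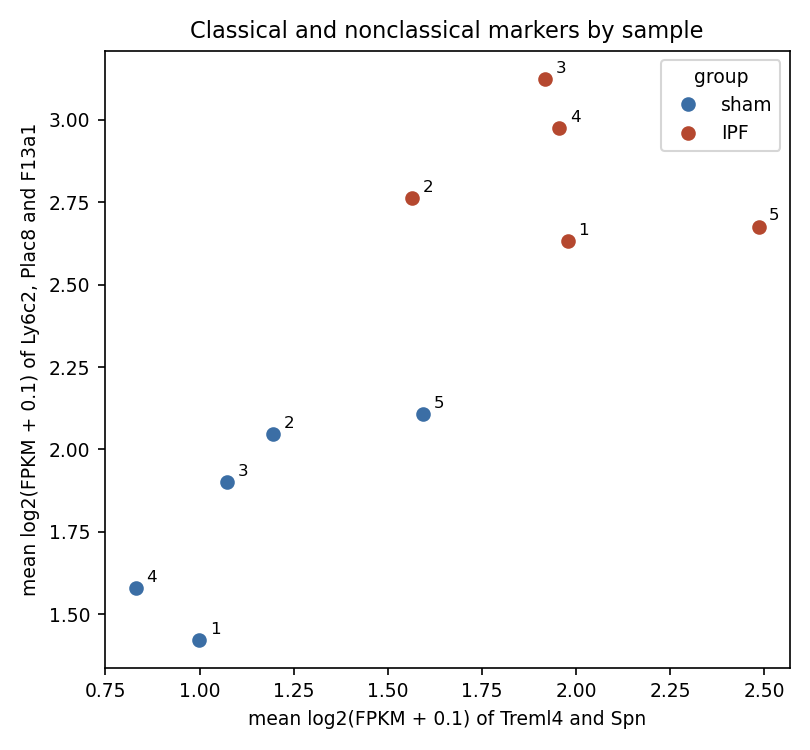
Mean log2(FPKM + 0.1) of the classical markers Ly6c2, Plac8 and F13a1 (vertical axis) against that of the nonclassical markers Treml4 and Spn (horizontal axis), 1 numbered point per mouse, sham in blue and IPF in red. The IPF mice lie higher on the vertical axis (2.63 to 3.12 against 1.42 to 2.11), and IPF replicate 5 lies farthest right at 2.48.

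Other genes of the same monocyte classes, listed from general knowledge but with earlier results of these libraries known, gave mixed calls. Of 10 further classical genes, 3 rose in IPF, 1 fell and 6 did not pass the adjusted p, with a median log2 difference of 0.38. Ms4a4c, a tetraspan-like membrane protein gene of monocytes, rose by a log2 difference of 1.09 (limma adjusted p = 0.00105), from 1.42 to 2.13 FPKM in sham to 3.36 to 5.04 FPKM in IPF, and was the only one to meet both limits. Ccr2, the receptor that classical monocytes use to leave marrow, rose by 0.66 (limma adjusted p = 0.0244), but 5 of the 10 fits that left out 1 library put its adjusted p above 0.05 (without IPF replicates 2, 3 or 4 or sham replicates 1 or 4), up to 0.0695. Vcan, a proteoglycan gene that classical monocytes share with fibroblasts and other stromal cells, fell by 0.86 (limma adjusted p = 0.0322), and 6 such fits put its adjusted p above 0.05 (without IPF replicates 1 or 2 or sham replicates 1, 3, 4 or 5), as did the fits with a replicate block (0.084), with no filter (0.0619) and without IPF replicate 5 and sham replicate 1 together (0.0808).

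Of 11 further nonclassical genes, 2 rose and 9 did not pass the adjusted p (limma voom on recovered reads passed 6), with a median log2 difference of 0.55. Cx3cr1, the fractalkine receptor of patrolling monocytes, rose by 0.97 (limma adjusted p = 0.00118), with 4.33 to 5.51 FPKM in IPF and 2.13 to 3.23 FPKM in sham. Pou2f2, a transcription factor gene of nonclassical monocytes and B cells, rose by 0.77 (limma adjusted p = 0.00636) from 0.495 to 0.670 FPKM in sham to 0.918 to 1.11 FPKM in IPF. Nr4a1, the nuclear receptor that nonclassical monocytes need, had a log2 difference of 0.01 (limma adjusted p = 0.993), and it is expressed in many lung cells. Adgre4 had a difference of 0.95 that did not pass (limma adjusted p = 0.0831), and Ace, which lung endothelium makes in quantity, one of -0.28 (limma adjusted p = 0.254). Over both lists, 5 of 21 genes rose and 1 fell, beside 3.71% and 2.14% of all genes tested.

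**Figure D3:**
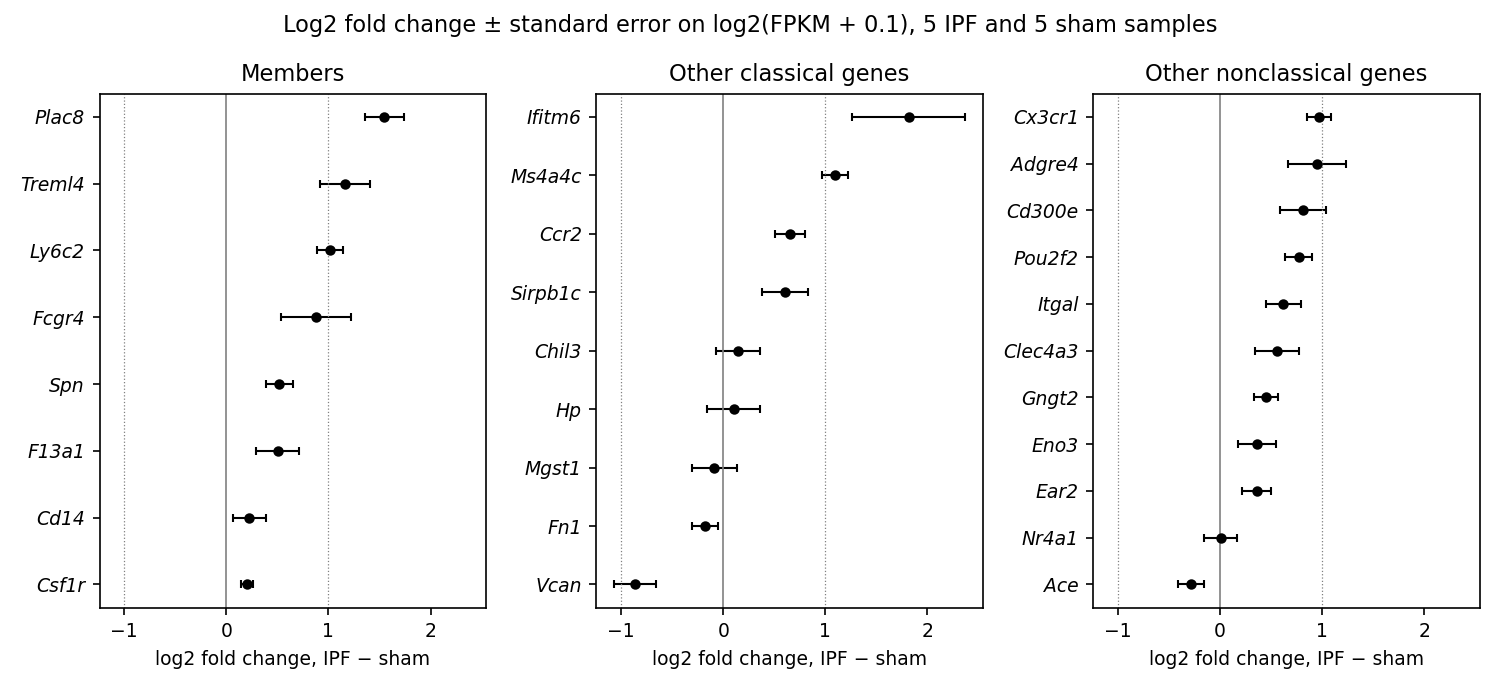
Log2 difference between IPF and sham with its standard error (horizontal axis, log2(FPKM + 0.1) scale) for the 8 members, for the other classical genes reported and for the 11 other nonclassical genes, with dotted lines at -1 and 1. Plac8 stands at 1.55 among the members, and the other lists run from -0.86 (Vcan) to 1.82 (Ifitm6, not past the adjusted p).

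Ligands, partners and genome neighbours of the members were examined in the same way. Csf1, the ligand of Csf1r, rose by 0.39 (limma adjusted p = 0.0135), from 8.50 to 10.5 FPKM in sham to 10.6 to 13.4 FPKM in IPF. Il34, its other ligand, had a log2 difference of -0.26 (limma adjusted p = 0.0986). The list of CSF1 receptor ligands and myeloid transcription factors held 1 gene that rose and 2 that fell of 13, the latter being the immediate early genes Nr4a2 (-0.59, limma adjusted p = 0.00415) and Nr4a3 (-1.14, limma adjusted p = 0.0094). Spi1, which encodes PU.1, had a difference of 0.46 that did not pass (limma adjusted p = 0.0649). For Cd14, 2 of 9 genes of the TLR4 complex rose, Ly96 (MD-2, by 0.58, limma adjusted p = 0.0408) and Myd88 (the adaptor, by 0.24, limma adjusted p = 0.0198), and Tlr4 itself had 0.28 (limma adjusted p = 0.3). Beside Fcgr4, 1 of the 3 other Fc gamma receptor genes rose, Fcgr1 by 0.97 (limma adjusted p = 0.0133). With limma voom on the recovered reads, 1 gene of the TLR4 complex and 2 Fc gamma receptor genes rose. Of the ligands and transcription factors, 2 rose and 2 fell by that test.

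Treml4 lies in the Trem gene cluster, of which 7 genes and adaptors were tested. Trem1, a receptor of neutrophils and monocytes that amplifies inflammation, rose by 0.79 (limma adjusted p = 0.038) and Treml2 rose by 0.47 (limma adjusted p = 0.0387). The other 5, among them the adaptor Tyrobp at 0.67 (limma adjusted p = 0.066), did not pass, and 7 of 7 had a higher mean in IPF. Of the 9 genes tested in the Ly6 cluster around Ly6c2, only Ly6d, a B lineage and epithelial marker, rose, by 1.31 (limma adjusted p = 0.0178). Among 12 genes that recruit or hold monocytes, 2 rose: Ccl2, the main ligand of CCR2, by 1.78 (limma adjusted p = 0.0371) at 0.248 to 1.11 FPKM in IPF (5 to 24 reads) and 0 to 0.264 FPKM in sham (0 to 5 reads), and Selplg, the selectin ligand PSGL-1, by 0.55 (limma adjusted p = 0.00571). Of 10 genes shared by monocytes and macrophages, 2 rose, Fcer1g by 0.41 (limma adjusted p = 0.0468) and Cd52 by 0.83 (limma adjusted p = 0.0379).

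Markers of other cells were counted in the same way, and the lists were not tested against each other. Of 11 neutrophil genes, 11 had a higher mean in IPF and 0 passed the adjusted p in limma, while 5 had an unadjusted p under 0.05 and limma voom also passed 0. Their summed level was 57.4 to 307.6 FPKM in IPF and 17.3 to 89.4 FPKM in sham. The upper value came from IPF replicate 5 alone, without which the IPF sums were 57.4 to 88.4 FPKM, all below the highest sham sum. The defining marker Ly6g was listed at 0 in IPF replicate 1 and in sham replicates 1 to 4. B cell genes rose in 4 of 6 (summed 32.8 to 48.9 FPKM in IPF and 17.9 to 29.4 FPKM in sham), natural killer genes in 3 of 6 (10.9 to 17.2 and 3.71 to 9.04 FPKM) and T cell genes in 1 of 6. With limma voom on the recovered reads these counts were 4, 5 and 0. Of the type I interferon response genes, 12 of 18 rose. Of 8 alveolar macrophage genes 0 passed in limma, at the unadjusted p or by limma voom, and of 8 interstitial macrophage genes 1 fell, Cd163 (-0.72, limma adjusted p = 0.0201), where limma voom passed 2 lower. Erythroid and blood genes passed in 0 of 5 by the same tests, with a summed level of 308.9 to 3263 FPKM in IPF and 822 to 3220 FPKM in sham. The part of any of these cells or of residual blood in the differences of the 8 members was not tested.

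How the members varied between mice of the same group does not use the comparison of IPF with sham. Group means were therefore removed from log2(FPKM + 0.1), and Pearson and Spearman correlations over the 10 mice were tested by exact permutation within groups, two-sided (14400 orders). All 28 pairs of members were computed, of which 21 had a positive r and 6 an unadjusted p under 0.05. Adjusted over the 28 pairs, 2 passed by Pearson and 0 by Spearman. Spn varied with Csf1r (r = 0.90, exact permutation p = 0.00118, adjusted 0.0311, and rho = 0.89, p = 0.00236, adjusted 0.0661), and r was 0.78 without the farthest mice on Spn, IPF replicate 5 and sham replicate 5. Treml4 varied with Fcgr4 (r = 0.89, exact permutation p = 0.00222, adjusted 0.0311, and rho = 0.81, p = 0.0156, adjusted 0.148), and r was 0.78 without the same mice. Without IPF replicate 5 and sham replicate 1, r was 0.86 for Spn and Csf1r and 0.76 for Treml4 and Fcgr4. The adjusted exact permutation p was then 0.234 for both. Leaving out single mice also put the adjusted p above 0.05, in 6 of 10 fits for Spn and Csf1r (without IPF replicates 1 or 5 or sham replicates 2, 3, 4 or 5). For Treml4 and Fcgr4 this held in 8 of 10 fits (all but IPF replicates 3 and 4).

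Treml4 and Plac8 themselves had r = 0.58 (exact permutation p = 0.0783, adjusted 0.188, and rho = 0.52, p = 0.141, adjusted 0.299), which was 0.45 without the farthest mice on Treml4. Among the classical markers, Plac8 and Ly6c2 had r = 0.77 (exact permutation p = 0.0224, adjusted 0.157, and rho = 0.72, p = 0.0545, adjusted 0.214), which was 0.50 without sham replicates 1 and 5. Plac8 and F13a1, also both classical, had r = 0.32 (exact permutation p = 0.207, adjusted 0.386, and rho = 0.47, p = 0.108, adjusted 0.275). Plac8 and Fcgr4, the latter a marker of neither class here, had r = 0.74 (exact permutation p = 0.0194, adjusted 0.157, and rho = 0.83, p = 0.0158, adjusted 0.148). That r was 0.71 without sham replicates 1 and 5. The r of F13a1 and Cd14 was 0.73 (exact permutation p = 0.0506, adjusted 0.188, and rho = 0.65, p = 0.0763, adjusted 0.214), but it rested on IPF replicates 3 and 5, without which it was 0.25. Treml4 and Spn, the nonclassical pair, had r = 0.69 (exact permutation p = 0.0428, adjusted 0.188, and rho = 0.55, p = 0.133, adjusted 0.299), which rested on replicate 5 of both groups, without which it was 0.17. At 10 mice these adjusted values leave the pairs undecided.

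The members were then set against the mean log2 level of 12 gene lists, 96 relations in all, a step chosen after the values had been seen. With adjustment over the 96, 3 relations passed by Pearson and 1 by Spearman, and 17 had an unadjusted p under 0.05. Fcgr4 varied with the 11 neutrophil genes (r = 0.96 and rho = 0.98, each with an exact permutation p of 6.94e-05, the smallest the 14400 orders can give, and 0.00667 adjusted), and r was 0.94 without IPF replicate 5 and sham replicate 5. Treml4 varied with the 11 other nonclassical genes (r = 0.95, exact permutation p = 0.000556, adjusted 0.0267, and rho = 0.92, p = 0.00167, adjusted 0.08), with r = 0.88 without the same mice. Plac8 varied with the 10 other classical genes (r = 0.90, exact permutation p = 0.00139, adjusted 0.0444, and rho = 0.87, p = 0.00778, adjusted 0.149), with r = 0.81 without sham replicates 1 and 5. The Fcgr4 relation passed in all 10 fits that left out 1 mouse. The Treml4 relation was past 0.05 in 6 of them (without IPF replicates 2, 3 or 5 or sham replicates 2, 3 or 5) and the Plac8 relation in 9 (all but IPF replicate 4), at r of 0.92 or more and of 0.87 or more. The Plac8 relation also missed 0.05 under both other scalings, with an adjusted exact permutation p of 0.0556 after median-of-ratios scaling and 0.0933 after quantile normalization.

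These members also had high r with other lists. Fcgr4 also had r = 0.92 with the nonclassical genes (exact permutation p = 0.00438, adjusted 0.105, and rho = 0.92, p = 0.00479, adjusted 0.149), and Treml4 had r = 0.84 with the neutrophil genes (exact permutation p = 0.0066, adjusted 0.108, and rho = 0.75, p = 0.0256, adjusted 0.164), the latter 0.60 without replicate 5 of both groups. Ly6c2 had r = 0.86 with the classical genes (exact permutation p = 0.00944, adjusted 0.113, and rho = 0.81, p = 0.0188, adjusted 0.164) and r = 0.84 with the alveolar macrophage genes (exact permutation p = 0.00674, adjusted 0.108, and rho = 0.79, p = 0.0108, adjusted 0.164). Plac8 had r = 0.78 with the neutrophil genes (exact permutation p = 0.0123, adjusted 0.131, and rho = 0.87, p = 0.00778, adjusted 0.149) and r = 0.77 with the platelet genes (exact permutation p = 0.0091, adjusted 0.113, and rho = 0.79, p = 0.0166, adjusted 0.164). F13a1, the remaining classical marker, had r = 0.50 with the classical genes (exact permutation p = 0.0842, adjusted 0.27). Its r with the dendritic cell genes was 0.71 (exact permutation p = 0.0643, adjusted 0.235). Spn, the other nonclassical marker, had r = 0.62 with the nonclassical genes (exact permutation p = 0.0806, adjusted 0.267), which was 0.08 without replicate 5 of both groups. Whether one list's relation with a member differs from another's was not tested. All of these values come from the same 10 libraries.

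**Figure D4:**
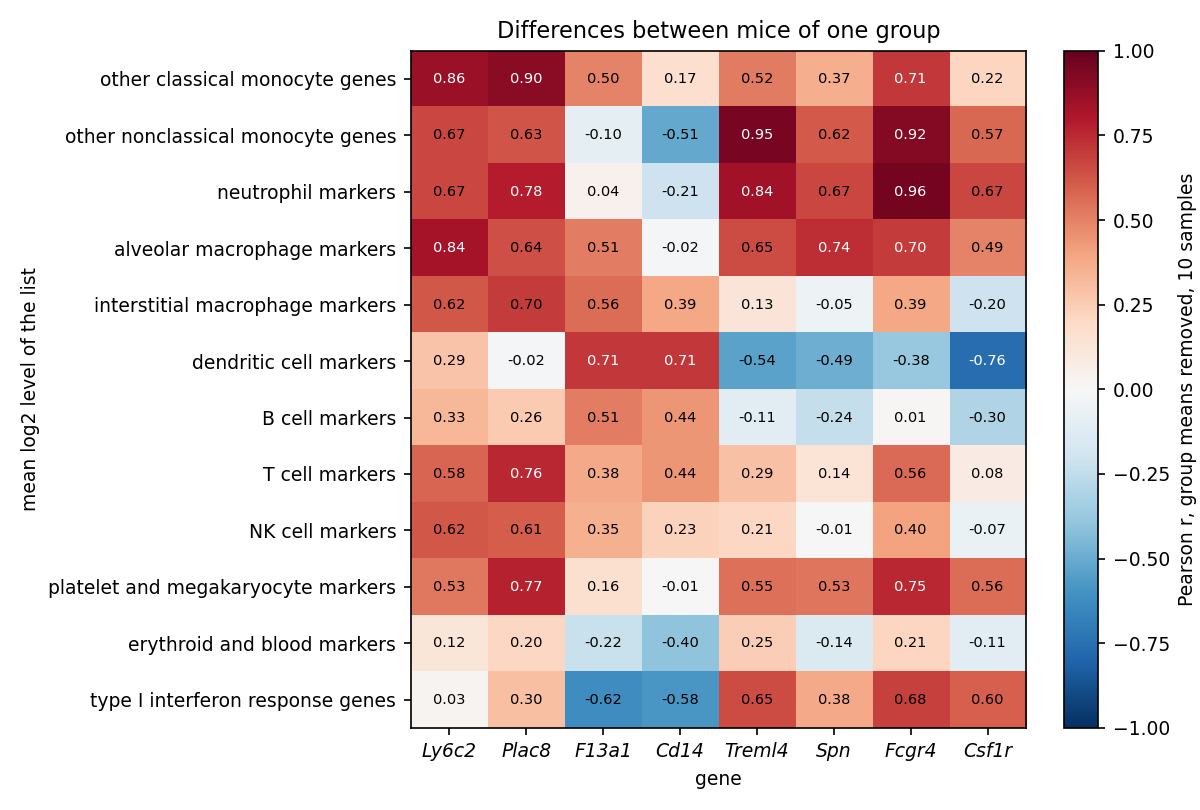
Pearson r over 10 mice, after removal of group means, between each of the 8 members (columns) and the mean log2 level of 12 gene lists (rows), from blue (-1) to red (1). The darkest red cells are Fcgr4 with the neutrophil genes (0.96), Treml4 with the nonclassical genes (0.95) and Fcgr4 with the same genes (0.92).

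**Figure D5:**
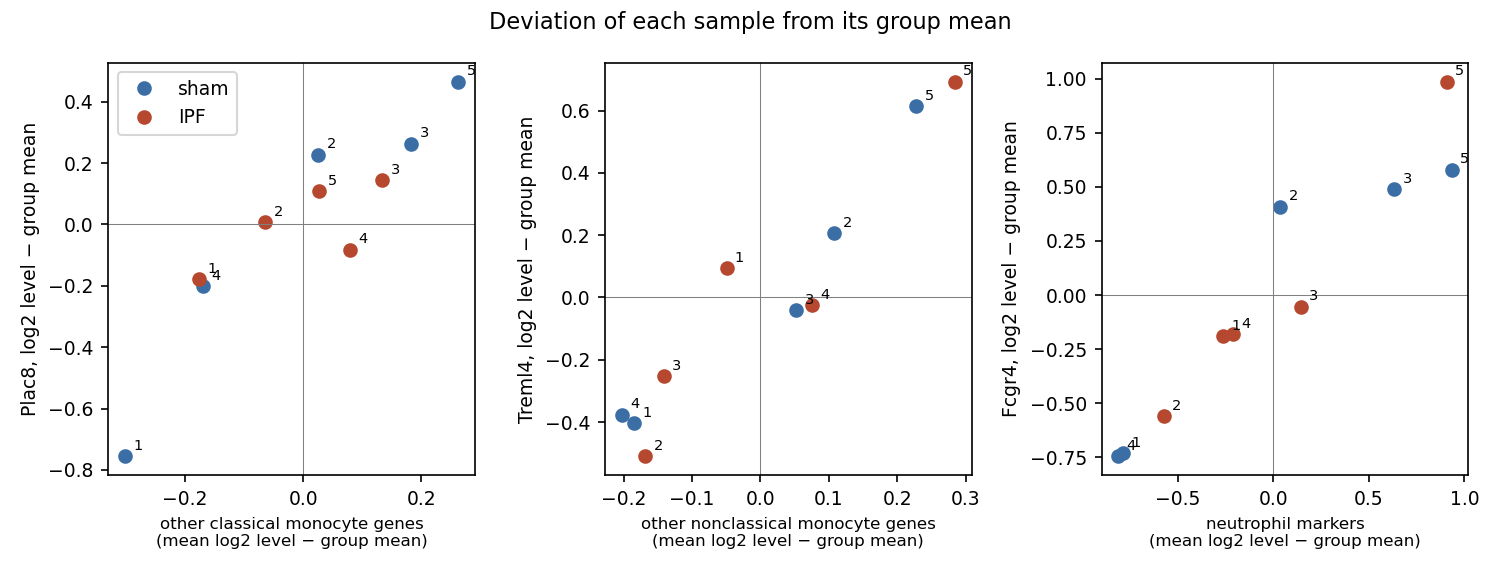
Deviation of each mouse from its group mean on the log2 scale for Plac8, Treml4 and Fcgr4 (vertical axes) against the mean deviation of the classical, nonclassical and neutrophil lists (horizontal axes), 1 numbered point per mouse, sham in blue and IPF in red. The points rise together in all 3 panels (r of 0.90, 0.95 and 0.96), with sham replicate 1 lowest for Plac8 and IPF replicate 5 highest for Treml4 and Fcgr4.

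Among the 13445 genes with a mean of at least 1 FPKM, those most like each member over the 10 mice, after removal of group means, were ranked by Pearson r. This is a description with no p, because the best of so many genes is high by selection. For Treml4 they were Gpkow (r = 0.96), Uri1 (0.96), Adgre4 (0.95), Ap2a2 (0.95) and Rbm19 (0.95). Adgre4 is itself a gene of nonclassical monocytes, and the other 4 are expressed in most cells. For Plac8 they were the leukocyte tetraspanin gene Cd53 (0.96), Ciao1 (0.94), Smu1 (0.94), 2210016F16Rik (0.94) and Lonp2 (0.93).
For Fcgr4 all 3 nearest genes were neutrophil genes, S100a9 (0.96), S100a8 (0.95) and Retnlg (0.95). The nearest to Csf1r were Slc2a3 (0.98), Zswim4 (0.96) and Tgfa (0.95), and to Spn Pip5k1b (0.96), Nt5e (0.95) and Cpd (0.95). Ly6c2 was closest to Ndrg4 (0.96), Snx5 (0.94) and Rnf149 (0.94), F13a1 to Ptges3-ps (0.94), Pcsk6 (0.93) and Pspc1 (0.93), and Cd14 to Gpt (0.95), 0610040J01Rik (0.94) and Ccdc181 (0.94).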

How the data were processed

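Whole-lung mRNA of 10 mice was sequenced, 5 after an aortocaval fistula (IPF) and 5 after a sham operation, with 1 library per mouse, so that p-values measure the spread between these mice. After Fastp trimming and HISAT2 alignment, the authors ran StringTie for quantification. They deposited FPKM values with lengths and positions of 54532 genes. Among the tools in the submitters' processing notes is Bowtie 0.12.2. The methods name GRCm39, but the deposited positions fit GRCm38, since chromosome 1 holds a gene that ends at 195323493. Whether counting used strand is not given in the sources used here. FPKM times gene length, divided by 1 step estimated for each library, gave whole reads (tolerance 0.01) for all values, and 0 columns were left unmapped.

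Those with mean FPKM of 0.1 or more (20448 genes) entered a limma fit (version 3.58.1, R 4.3.3) on log2(FPKM + 0.1) with trended variances, 5 IPF against 5 sham, no covariate and Benjamini-Hochberg adjustment over all genes tested. Fold changes on this scale understate those of low genes. DESeq2, which the authors used, was not run here, since the deposited unit is FPKM; the recovered reads were used in limma voom as an alternative. The members and the gene lists were chosen with earlier results of these data known. Named genes are the members, in each list up to 6 genes past the adjusted p, the genes most like each member (5 for Treml4 and Plac8, 3 for the others), defining markers of other cells, and sex-linked and clock genes; Il34, Spi1, Tlr4, Tyrobp, Ly6c1, Nr4a1, Adgre4, Ace, Ifitm6 and Hmgxb3 were named outside this rule after their values were seen. A gene of the classical list that the rule names counts in that list but is not reported here. Promoter windows are from RefSeq (GRCm38.p6), for Plac8 and Ly6c2 the nearer of 2 to the deposited gene start. Tables were made in Python 3.11.15 with pandas 2.3.3, numpy 2.4.6 and scipy 1.17.1. The test and the correlations were tested on simulated data. Libraries of a group differed by more than sampling noise (chi-square per degree of freedom 4.78 to 37.3). The groups share replicate numbers, and deviations of same-numbered libraries correlated at -0.0415 to 0.166. Such values cannot show whether these libraries shared a litter or a batch, and the main fit treated the samples as unpaired. With a replicate block the standard error was smaller for Treml4, Plac8, Spn, Csf1r, Cd14 and Fcgr4. It was larger for Ly6c2 and F13a1. Alternatives were other pseudocounts, filters and scalings, a replicate block, no variance trend, limma voom on the recovered reads and leaving out libraries.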

Additional observations from a re-analysis of the deposited data

Results flagged for a closer look

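Outlying libraries were sought in 128 groups of 5, the IPF and the sham libraries of 63 genes (the members, the list genes named past the adjusted p except the sex-linked ones, and others named in the text) and of the class difference. In 16 of them 1 library lay so far from the others that its gap exceeded 0.71 of the whole range; chance flags about 1 in 20 groups. Among the members this held for Fcgr4 in IPF, where replicate 5 had 9.54 FPKM and the next library 4.59. The same mouse, IPF replicate 5, was highest of its group for Adgre4 (4.44 FPKM), S100a8 (78.9 FPKM), S100a9 (185.5 FPKM), Trem1 (1.49 FPKM), Rtp4 (33.8 FPKM), Ifi44 (6.94 FPKM), Dbp (3.49 FPKM), Per3 (6.87 FPKM) and Tef (39.1 FPKM) and lowest for Npas2 (1.29 FPKM). In sham, replicate 1 was highest for Per3 (17.3 FPKM) and lowest for Sftpc (9437 FPKM), and replicate 5 was highest for Fcgr1 (1.90 FPKM), Tlr4 (4.37 FPKM) and Ly6g (0.278 FPKM, the others listed at 0). Without IPF replicate 5 and sham replicate 1, a step chosen after seeing the data, Plac8 alone of the members met both limits.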

How the results depend on the processing

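Among the members and Ms4a4c, Ccr2, Vcan, Cx3cr1 and Pou2f2, no log2 difference changed sign under the alternatives. Nor did the class difference or any of the 5 correlations that passed. Nr4a1, Adgre4, Ace and Ifitm6 were not followed through the alternatives. Weaker correlations did change sign when libraries were left out (Treml4 with Csf1r from 0.66 to -0.07 without replicate 5 of both groups). The call limits were sensitive to the pseudocount: with 1 in place of 0.1, 74 genes were called in place of 233, 1 member (Plac8) in place of 3 and 0 of the other monocyte genes in place of 1, and the log2 difference of Ly6c2 was 0.77, by the construction of that scale. With a filter at a mean FPKM of 1, 154 genes were called. On recovered reads, limma voom called 3 other monocyte genes, and 11 in place of 6 at the adjusted p alone; the cause was not tested. With the replicate block 202 genes were called, 3 members and 1 other monocyte gene, and Vcan was the only named monocyte gene whose call was lost (limma adjusted p = 0.084). Leaving out 1 library gave 748 to 1619 genes at the adjusted p alone and 164 to 303 at both limits, 1 to 3 members (2 to 4 at the adjusted p alone), 1 to 3 other monocyte genes, 0 to 3 member pairs and 1 to 4 relations with lists. Without IPF replicate 5 and sham replicate 1 together, 1 member met both limits and 2 the adjusted p, and 0 pairs and 0 relations passed; 8 mice also leave fewer orders for the test. Under quantile normalization 0 pairs passed. The log2 difference without single libraries was 0.99 to 1.32 for Treml4, 1.36 to 1.66 for Plac8, 0.94 to 1.08 for Ly6c2, 0.35 to 0.64 for F13a1, 0.44 to 0.60 for Spn, 0.16 to 0.22 for Csf1r, 0.09 to 0.33 for Cd14 and 0.63 to 1.02 for Fcgr4. Of the members, depth limits Treml4 and Fcgr4 most, with as few as 32 and 31 reads; Ccl2 rested on 0 to 5 reads per sham library.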
